A study of Mus musculus with 10 samples.

Results

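The genes described here are 28 genes of cholesterol and fatty acid synthesis, read from RNA of the mouse lung. They were chosen by name as a pathway list, and their Ensembl identifiers were matched to symbols through GENCODE release M21 (GRCm38). All 28 were found among the 47333 genes of the deposited table, 17 in the sterol branch and 11 in the fatty acid branch, and all 28 passed the filter on low counts that left 18024 genes. The tissue was the lung's right middle lobe, taken at 12 weeks from C57BL/6J mice that had no treatment. The study compared 5 mice with loss of Bpifb1, labelled KO, with 5 wild-type mice, labelled WT. The labels do not describe the allele. KO replicate 1 and WT replicates 2 and 3 were labelled male, and the other 7 mice were labelled female. The labels describe mice housed with both genotypes in a cage but do not state in words that each library is a different animal, so p-values measure the spread between these 10 libraries.

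Each library held 21357452 to 28321361 estimated counts. Levels are given as CPM, a gene's counts per 1000000 counts of its library after correction by the trimmed mean of M values, and log2 fold changes come from edgeR's quasi-likelihood test with sex as a covariate. A gene was called at a Benjamini-Hochberg adjusted p under 0.05 over all 18024 genes. Bpifb1, examined as the check of the genotype labels, lay between 0.217 and 1.26 CPM in the KO and between 28.1 and 79.6 CPM in the WT libraries. KO replicate 5 is labelled female but measured 1.78 CPM of Xist, against 274 to 407 CPM in the other 6 females and 1.29 to 1.73 CPM in the males, so the difference in Insig1 and the counts at an unadjusted p under 0.05 between the sexes are also given without it.

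Cholesterol is built from acetyl-CoA through the mevalonate pathway to farnesyl diphosphate and squalene, which is closed into a ring and trimmed to cholesterol. Fatty acids are built from the same precursor by acetyl-CoA carboxylase and fatty acid synthase, then lengthened by elongases and given double bonds by desaturases. The transcription factors SREBP-2 and SREBP-1, encoded by Srebf2 and Srebf1, switch on the sterol and the fatty acid genes, and INSIG proteins hold SREBP precursors in the endoplasmic reticulum when sterols are plentiful. In the lung, alveolar type 2 cells make fatty acids for surfactant phospholipid, and fat cells and macrophages in the tissue also handle lipid. In a piece of whole lung, fewer cells of a type and less RNA per cell cannot be told apart.

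The promoters of the members were read for motifs of these factors. A link between the motifs and the levels across mice was not tested. The windows are the 250 bases before each start that RefSeq gives for GRCm38.p6. RefSeq's table held 28 such windows for 21 of the 28 genes. No window was read for Fdps, Fdft1, Sqle, Stard4, Scd1, Scd2 and Fads1. The motifs searched on both strands were the CCAAT box, bound by NF-Y, a partner of SREBP, and the sterol regulatory element in the form TCACNCCAC. The 5 windows shown are those of the reference gene of each branch, of the gene closest to each reference (Idi1 and Elovl6), and of Mvk, which held the most CCAAT boxes. The windows are Hmgcs1 at chr13:119690101-119690350, plus strand; Idi1 at chr13:8885356-8885605, plus strand; Mvk at chr5:114444019-114444268, plus strand; Fasn at chr11:120824548-120824797, minus strand; and Elovl6 at chr3:129532136-129532385, plus strand. Each is written in the direction of the gene, and capitals mark a motif on either strand.
Hmgcs1: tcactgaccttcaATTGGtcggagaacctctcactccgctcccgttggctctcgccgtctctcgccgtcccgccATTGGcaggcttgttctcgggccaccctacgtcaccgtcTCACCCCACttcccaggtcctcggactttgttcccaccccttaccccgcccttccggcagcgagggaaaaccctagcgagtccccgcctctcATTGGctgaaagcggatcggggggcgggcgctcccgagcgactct
Idi1: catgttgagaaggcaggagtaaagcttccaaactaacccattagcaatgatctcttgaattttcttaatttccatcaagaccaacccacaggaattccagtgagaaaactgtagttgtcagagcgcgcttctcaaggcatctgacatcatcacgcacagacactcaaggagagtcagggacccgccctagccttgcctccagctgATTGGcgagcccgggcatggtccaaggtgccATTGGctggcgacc
Mvk: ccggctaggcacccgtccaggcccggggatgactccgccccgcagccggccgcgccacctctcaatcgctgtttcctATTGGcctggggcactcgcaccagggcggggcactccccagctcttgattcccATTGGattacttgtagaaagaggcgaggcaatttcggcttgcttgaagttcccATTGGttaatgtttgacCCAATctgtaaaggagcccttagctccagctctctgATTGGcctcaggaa
Fasn: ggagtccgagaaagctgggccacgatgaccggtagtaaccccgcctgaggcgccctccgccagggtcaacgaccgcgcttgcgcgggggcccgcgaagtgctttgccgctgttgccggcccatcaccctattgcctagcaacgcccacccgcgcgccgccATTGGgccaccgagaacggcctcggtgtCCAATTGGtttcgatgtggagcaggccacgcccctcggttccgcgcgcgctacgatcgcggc
Elovl6: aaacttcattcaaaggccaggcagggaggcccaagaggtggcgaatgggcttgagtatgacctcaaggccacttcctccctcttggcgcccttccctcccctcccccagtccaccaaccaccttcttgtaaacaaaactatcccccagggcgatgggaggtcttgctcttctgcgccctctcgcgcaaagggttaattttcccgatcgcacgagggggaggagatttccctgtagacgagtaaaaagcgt

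A CCAAT box lay in at least 1 window of all 13 sterol genes with an entry, against 4 of 8 fatty acid genes (Elovl1, Fasn, Me1 and Srebf1). By window these were 13 of 16 and 5 of 12, where 33.8% of all promoter windows of this length held one. By gene the share over all genes was 37.5%, to which the 4 of 8 fatty acid genes come near. Mvk held 5 boxes, Hmgcs1 3, Msmo1 3 and Fasn 3, of which 2 overlap in Fasn. The TCACNCCAC form was found in Hmgcs1 alone of the 21 genes, beginning 137 bases before the start, and in 1.05% of all windows. In Elovl6 neither string of letters was found in this window. A match is a string of letters and no measured binding.

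Scd1 and Scd2 stood highest per unit of transcript length. Scd1, which encodes a stearoyl-CoA desaturase, measured 325 ± 74.3 CPM per kilobase of exon (SD, n = 10 mice), and its relative Scd2 measured 152 ± 12.1. On the same scale the very-long-chain elongase gene Elovl1 measured 122 ± 16.8, the fatty acid synthase gene Fasn 70.7 ± 9.88, and the ATP citrate lyase gene Acly 61.9 ± 5.58. Fads1, a desaturase gene of polyunsaturated fatty acids, followed at 31.4 ± 2.36, so that 6 genes of the fatty acid branch lay ahead of all 17 sterol genes. The highest sterol genes were Insig1 at 28.6 ± 3.45 CPM per kilobase and Srebf2 at 26.6 ± 1.25. The lowest places were held by Elovl6, an elongase gene for palmitate, at 2.00 ± 0.903, the lanosterol synthase gene Lss at 2.75 ± 0.333 and the last-step reductase gene Dhcr7 at 2.90 ± 0.254. Neighbours in the middle of the order, such as Hmgcs1 at 17.9 ± 2.42 and the phosphomevalonate kinase gene Pmvk at 18.0 ± 2.20, did not differ beyond their spread between mice. Exon length was taken as the union of all annotated exons, which lowers the per-kilobase value of genes with long rare transcripts.

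**Figure D1:**
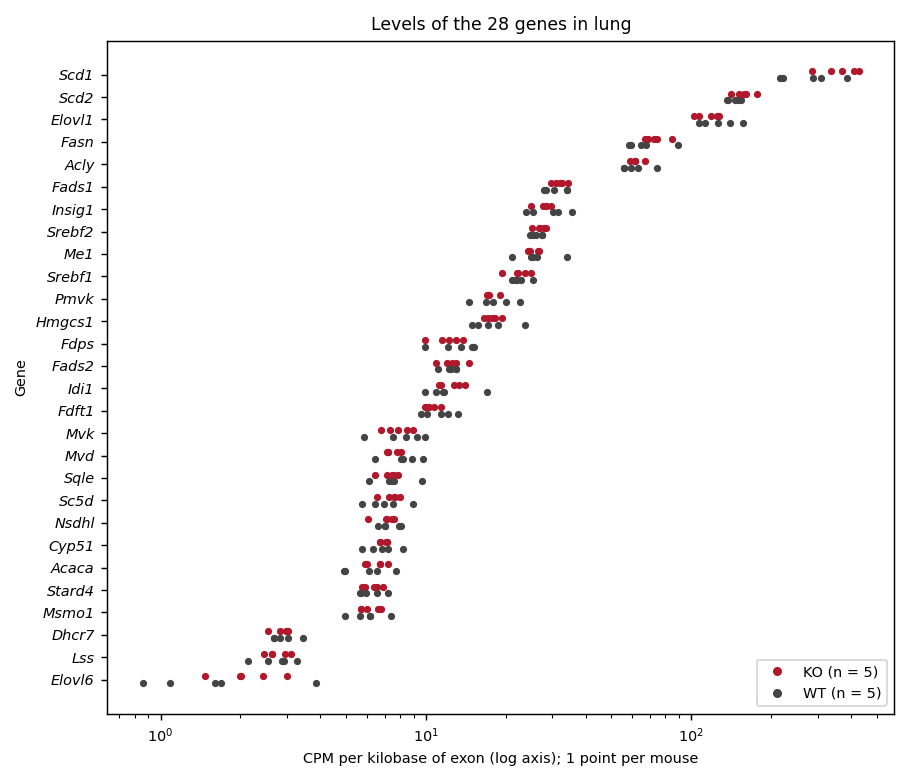
Level of each of the 28 genes in CPM per kilobase of exon on a log axis, 1 point per mouse, KO in red and WT in grey (n = 5 each). Scd1, Scd2, Elovl1, Fasn and Acly lie highest, and the KO and WT points overlap in every gene.

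Some reads cannot be placed in a single gene, which bears on several members. The share of 50-base transcript windows that also occur in another gene was 30.4% for Acaca, 26.2% for Fdps, 22.9% for Me1, 17.7% for Idi1 and 9.38% for Fdft1, and under 5% for the other 23 genes. The main partner of Idi1, Gm13502, averaged 7.70 CPM. Scd1 shared 4.56% of its windows, mainly with Scd3 and Scd2. Fdft1 overlaps Ctsb (481 CPM) on the opposite strand, Cyp51 overlaps Akap9 (88.4 CPM), Srebf1 overlaps Rai1 (73.5 CPM), Elovl1 overlaps Cdc20 (6.87 CPM), and Mvd overlaps Gm20388 (128 CPM, against 14.6 CPM of Mvd). The libraries were stranded, but whether counting used the strand is not given in the sources used here, so the values of these genes are uncertain.

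No gene of the sterol branch differed between KO and WT mice at the threshold. Of the 17 genes 0 were called by edgeR's quasi-likelihood test, and 2 had an unadjusted p under 0.05, both with a lower estimate in KO (Fdft1 and Insig1). When single mice were left out this last count ran from 0 (without KO replicate 2, KO replicate 5 or WT replicate 1) to 5 (without WT replicate 3). It was also 0 when the sex covariate was left out. DESeq2 and limma-voom also called 0 of 17. Over all genes tested 0.0222% were called, and 8.04% had an unadjusted p under 0.05 and were lower in KO. The median log2 fold change of the branch was -0.07, against -0.003 over all genes, and 14 of 17 estimates were below 0, as were 50.7% of all genes. When the sex covariate was left out, 11 of 17 estimates were below 0. Without WT replicate 5, the mouse with the highest sterol gene levels, the median was -0.004. The genotype ranges overlapped in all 17 genes, where 1.88% of all genes had ranges that did not overlap.

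Hmgcs1 (ENSMUSG00000093930, chromosome 13, 119690379 to 119708260, plus strand) encodes the synthase that makes HMG-CoA at the entry to the mevalonate pathway. It measured 88.7, 79.2, 76.4, 84.0 and 81.9 CPM in KO replicates 1 to 5 and 78.8, 72.3, 68.4, 86.2 and 109 CPM in WT replicates 1 to 5. WT replicate 5 was highest, and the KO values all lay within the WT range (edgeR log2 fold change -0.04, SE 0.10, adjusted p 0.888, 95% interval -0.26 to 0.19). Mvk (ENSMUSG00000041939, chromosome 5, 114444269 to 114460591, plus strand), the mevalonate kinase gene, measured 18.1, 19.7, 23.8, 22.7 and 21.1 CPM in KO replicates 1 to 5 and 24.7, 20.1, 15.7, 22.4 and 26.7 CPM in WT replicates 1 to 5. Its lowest and highest values were both in WT mice, replicates 3 and 5 (edgeR log2 fold change -0.12, SE 0.09, adjusted p 0.476).

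Fdft1 (ENSMUSG00000021273, chromosome 14, 63145150 to 63179578, minus strand) encodes squalene synthase, which commits the pathway to sterols. It measured 42.0, 43.3, 45.4, 48.1 and 42.3 CPM in KO replicates 1 to 5 and 56.0, 42.7, 40.7, 48.4 and 51.3 CPM in WT replicates 1 to 5. WT replicates 1, 4 and 5 lay above every KO mouse and WT replicate 3 below every KO mouse (edgeR log2 fold change -0.15, SE 0.06, adjusted p 0.241). Sqle (ENSMUSG00000022351, chromosome 15, 59315077 to 59331192, plus strand) encodes squalene epoxidase, a control point of the later pathway. It measured 35.7, 39.6, 41.3, 43.6 and 42.1 CPM in KO replicates 1 to 5 and 42.2, 40.2, 33.8, 41.4 and 53.6 CPM in WT replicates 1 to 5. The genotypes overlapped, with WT replicate 3 lowest and WT replicate 5 highest (edgeR log2 fold change -0.11, SE 0.08, adjusted p 0.468). Lss (ENSMUSG00000033105, chromosome 10, 76531588 to 76557138, plus strand), whose product closes the ring, measured 26.5, 28.3, 28.5, 31.7 and 33.4 CPM in KO replicates 1 to 5 and 31.1, 27.4, 23.0, 31.6 and 35.1 CPM in WT replicates 1 to 5. The KO mean of 29.7 ± 2.79 and the WT mean of 29.7 ± 4.60 CPM (SD, n = 5 per genotype) differed by less than the spread between mice (edgeR log2 fold change -0.05, SE 0.07, adjusted p 0.751).

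Insig1 (ENSMUSG00000045294, chromosome 5, 28071363 to 28078662, plus strand), the sterol-sensing partner of the SREBP pathway, measured 76.9, 87.9, 85.4, 91.4 and 87.8 CPM in KO replicates 1 to 5 and 97.8, 78.7, 74.1, 93.1 and 110.0 CPM in WT replicates 1 to 5. WT replicates 1, 4 and 5 were above all KO mice, and WT replicate 3 was below them all (edgeR log2 fold change -0.13, SE 0.06, adjusted p 0.273). Srebf2 (ENSMUSG00000022463, chromosome 15, 82147181 to 82205379, plus strand) measured 181, 194, 192, 200.4 and 204 CPM in KO replicates 1 to 5 and 186, 183, 178, 197 and 198 CPM in WT replicates 1 to 5. It was the steadiest of the 28 genes, with a coefficient of variation of 4.68% over the 10 mice and a 95% interval of the log2 fold change from -0.08 to 0.12 (edgeR log2 fold change 0.02, SE 0.04, adjusted p 0.855). The other 10 sterol genes encode enzymes of the mevalonate steps (Pmvk, Mvd, Idi1 and Fdps), enzymes that turn lanosterol into cholesterol (Cyp51, Msmo1, Nsdhl, Sc5d and Dhcr7) and the sterol transfer protein STARD4. They had log2 fold changes from -0.18 (Fdps) to 0.03 (Sc5d), with edgeR adjusted p of 0.342 or more. For all 17 genes the 95% interval lay within 0.5 of 0 on the log2 scale (-0.38 to 0.32 at the widest).

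In the fatty acid branch 0 of 11 genes were called between KO and WT by edgeR's quasi-likelihood test, by DESeq2 or by limma-voom. By edgeR 2 had an unadjusted p under 0.05, Scd2 with a higher mean in KO and Elovl1 with a lower one, where 8.92% and 8.04% of all genes stood past that mark in each direction. The count of 1 gene each way is near that background. The median log2 fold change was 0.03, and it ran from -0.01 to 0.07 when single mice were left out, with 1 to 3 genes at an unadjusted p under 0.05 (3 without KO replicate 3, WT replicate 1 or WT replicate 4). When the sex covariate was left out, 0 of 11 had an unadjusted p under 0.05. No gene of the branch had genotype ranges that did not overlap.

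Fasn (ENSMUSG00000025153, chromosome 11, 120805846 to 120824547, minus strand) encodes the synthase that makes palmitate. It measured 734, 793, 754, 812 and 928 CPM in KO replicates 1 to 5 and 973, 641, 710.1, 651 and 738 CPM in WT replicates 1 to 5. WT replicate 1 was highest, and WT replicates 2 and 4 were lowest (edgeR log2 fold change 0.08, SE 0.10, adjusted p 0.732, 95% interval -0.14 to 0.29). Srebf1 (ENSMUSG00000020538, chromosome 11, 60199089 to 60222581, minus strand), the gene of its transcriptional activator, measured 109.6, 125, 133, 141 and 125 CPM in KO replicates 1 to 5 and 143, 124, 119, 122 and 129 CPM in WT replicates 1 to 5. KO replicate 1 was lowest and WT replicate 1 highest (edgeR log2 fold change -0.04, SE 0.06, adjusted p 0.774).

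Scd1 (ENSMUSG00000037071, chromosome 19, 44394455 to 44407879, minus strand) showed the largest estimated difference of the 28 genes between the genotypes. It measured 1811, 2006, 1394, 2094 and 1644 CPM in KO replicates 1 to 5 and 1897, 1087, 1506, 1056 and 1414 CPM in WT replicates 1 to 5. KO replicates 1, 2 and 4 and WT replicate 1 were high and WT replicates 2 and 4 low, so the groups overlapped, with a KO mean of 1790 ± 282 and a WT mean of 1392 ± 344 CPM (SD, n = 5 per genotype). It was not called (edgeR log2 fold change 0.35, SE 0.18, adjusted p 0.36), and its 95% interval ran from -0.06 to 0.75. Over the 19 alternatives the log2 fold change ran from 0.23 to 0.51 and the adjusted p from 0.26 to 0.61. Scd2 (ENSMUSG00000025203, chromosome 19, 44293674 to 44306864, plus strand) measured 882, 863, 773, 965 and 829 CPM in KO replicates 1 to 5 and 749.9, 823, 842, 802 and 748 CPM in WT replicates 1 to 5. KO replicate 3 was below 3 WT mice, while KO replicates 1, 2 and 4 were above all WT mice (edgeR log2 fold change 0.14, SE 0.06, adjusted p 0.285).

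Elovl1 (ENSMUSG00000006390, chromosome 4, 118428093 to 118432953, plus strand) had the smallest unadjusted p of the 28 genes for genotype, 0.0115. It measured 279, 293, 341, 348 and 323 CPM in KO replicates 1 to 5 and 429, 307, 293, 345 and 382 CPM in WT replicates 1 to 5. WT replicates 1 and 5 stood above all KO mice, and the other WT mice overlapped with them (edgeR log2 fold change -0.20, SE 0.07, adjusted p 0.195). Among markers of alveolar type 2 cells, 7 of 9 had a lower estimate in KO with an unadjusted p under 0.05 by edgeR, and 0 of 9 were called. Their summed level was 28720 to 32680 CPM in KO and 29820 to 35580 CPM in WT mice. Of all genes 8.04% stood past that mark in that direction. So did 3 of 6 lipofibroblast markers (Tcf21, Plin2 and Inmt) and 1 of 5 club cell markers (Aldh1a1). Of 5 ciliated cell markers 1 was higher in KO (Foxj1). The fat cell, macrophage, endothelium and Schwann cell lists held none past that mark, and no marker was called between the genotypes. None of the alveolar type 2 markers was at 0, and Lamp3 (edgeR log2 fold change 0.007) and Slc34a2 (-0.038) were not past that mark. Whether the 7 alveolar type 2 markers past it varied independently of each other was not tested. The part of these cell types in the values of Elovl1 or of other members was not tested. Elovl6 varied most, from 5.53 CPM in WT replicate 2 to 24.8 CPM in WT replicate 1, so its 95% interval was wide (-0.713 to 0.999; edgeR log2 fold change 0.14, SE 0.37, adjusted p 0.883). The remaining genes Acly, Acaca, Me1, Fads1 and Fads2 had log2 fold changes from -0.07 to 0.09. The interval lay within 0.5 of 0 for 9 of the 11 genes, all but Elovl6 and Scd1, and within 1 for all 11.

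**Figure D2:**
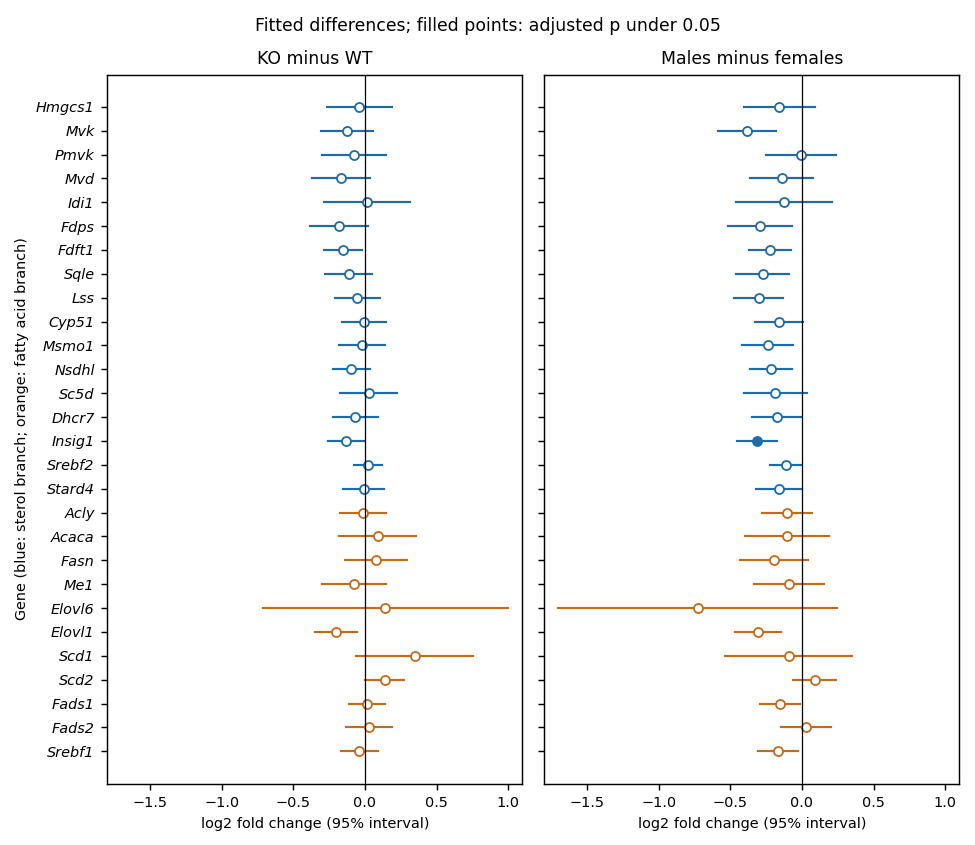
Fitted log2 fold change of each gene with its 95% interval, KO minus WT on the left and males minus females on the right, blue for the sterol and orange for the fatty acid branch. No point is filled on the left, and only Insig1 is filled (adjusted p under 0.05) on the right, where all 17 sterol estimates lie below 0.

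The wider pathway was read from 49 further genes in 5 lists, of which 45 were tested. None was called between the genotypes by edgeR's quasi-likelihood test, DESeq2 or limma-voom. The lowest adjusted p was 0.182 by edgeR, and by DESeq2's Wald test it lay at the threshold (0.05 as rounded). At an unadjusted p under 0.05 stood 8 of the 45 genes by edgeR, 3 with a higher and 5 with a lower estimate in KO. Of all genes 17.0% stood there, so the count of 8 is near the background. It fell to 3 without WT replicate 1 and to 5 without KO replicate 2, KO replicate 5 or WT replicate 2. Among 7 other cholesterol synthesis enzymes these were the reductase gene Tm7sf2 (edgeR log2 fold change -0.22, SE 0.08, adjusted p 0.205) and the isomerase gene Ebp (log2 fold change -0.12, SE 0.06, edgeR adjusted p 0.283). Among 8 tested genes of SREBP processing, cholesterol uptake and lysosomal export these were Npc2, Insig2 and Mbtps2. Npc2, which carries cholesterol out of lysosomes, had mean levels of 769 ± 47.6 (KO) and 861 ± 45.6 CPM (WT; SD, n = 5 in either genotype; edgeR log2 fold change -0.18, SE 0.06, adjusted p 0.182).

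Insig2, the second INSIG gene, was the 1 gene of the 45 whose genotype ranges did not overlap, a count near the 1.88% background over all genes. It measured 36.3, 36.1, 32.0, 35.6 and 35.4 CPM in KO replicates 1 to 5 and 38.8, 38.8, 37.2, 41.0 and 37.7 CPM in WT replicates 1 to 5. All KO mice lay below all WT mice by a narrow margin (edgeR log2 fold change -0.14, SE 0.05, adjusted p 0.221). Mbtps2, a protease gene that releases active SREBP, had a higher estimate in KO (edgeR log2 fold change 0.19, SE 0.08, adjusted p 0.246). Of 7 genes of the liver X receptors and sterol efflux, the cholesterol exporter gene Abca1 (edgeR log2 fold change 0.26, SE 0.10, adjusted p 0.222) and the receptor gene Nr1h3 (log2 fold change -0.13, SE 0.06, edgeR adjusted p 0.25) stood past the unadjusted mark. Of 17 other fatty acid genes tested 0 did, and of 6 genes of surfactant lipid assembly 1 did, the choline kinase gene Chka (edgeR log2 fold change 0.18, SE 0.08, adjusted p 0.269).

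Between the sexes 1 sterol gene was called. Insig1 was lower in males, at 76.9, 78.7 and 74.1 CPM in the 3 males and 85.4 to 110.0 CPM (median 91.4) in the 7 females, and the ranges did not overlap (edgeR log2 fold change -0.31, SE 0.07, adjusted p 0.0495). Over all genes tested 0.583% were called between the sexes, and 0.133% were called and lower in males. The call held in 4 of 18 alternatives and was lost on leaving out any 1 mouse other than WT replicate 4. The adjusted p ran from 0.00148 by DESeq2 to 0.183 without WT replicates 3 and 5, with log2 fold changes from -0.39 to -0.23. Without KO replicate 5 it was -0.32 with an edgeR adjusted p of 0.0728.

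The other sterol genes leaned the same way. All 17 estimates were below 0, against 51.7% of all genes, with a median of -0.19 against -0.01 over all genes. At an unadjusted p under 0.05 stood 11 of 17 with a lower estimate in males and 0 with a higher one, where 7.79% and 7.34% of all genes stood in those directions. At an adjusted p under 0.1, edgeR had 2 of the 17 lower in males (Insig1 and Mvk), against 0.849% of all genes. The 11 were Mvk, Fdps, Fdft1, Sqle, Lss, Msmo1, Nsdhl, Dhcr7, Insig1, Srebf2 and Stard4. The count of 11 was 9 without KO replicate 5, 6 without WT replicate 3, 8 without WT replicate 5 and 5 without both of those WT mice, and at least 14 of the 17 estimates stayed below 0 in each of the alternatives. The median ran from -0.311 without KO replicate 1, the only KO mouse labelled male, to -0.124 without WT replicate 5. The levels of these genes varied together across mice, so the 11 are not independent of each other.

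In 3 of the 17 genes, Insig1, Lss and Srebf2, every mouse labelled male lay below every mouse labelled female, where 2.55% of all genes did so. KO replicate 5, with Xist at the level of the males, measured 87.8, 33.4 and 204 CPM of these genes, above all 3 labelled males, so the count rests on its label. Lss measured 26.5, 27.4 and 23.0 CPM in the 3 males and 28.3 to 35.1 CPM (median 31.6) in the 7 females (edgeR log2 fold change -0.30, SE 0.08, adjusted p 0.104). Srebf2 measured 181, 183 and 178 CPM in the 3 males and 186 to 204 CPM (median 197) in the 7 females (edgeR log2 fold change -0.11, SE 0.05, adjusted p 0.301). Mvk had the largest estimate of the branch, with 18.1, 20.1 and 15.7 CPM in the 3 males and 19.7 to 26.7 CPM (median 22.7) in the 7 females (edgeR log2 fold change -0.39, SE 0.09, adjusted p 0.0868), and the ranges overlapped because WT replicate 2 lay above KO replicate 2. Sqle measured 35.7, 40.2 and 33.8 CPM in the 3 males and 39.6 to 53.6 CPM (median 42.1) in the 7 females (edgeR log2 fold change -0.28, SE 0.09, adjusted p 0.153), and Fdft1 measured 42.0, 42.7 and 40.7 CPM in the 3 males and 42.3 to 56.0 CPM (median 48.1) in the 7 females (edgeR log2 fold change -0.23, SE 0.07, adjusted p 0.146). Hmgcs1 measured 88.7, 72.3 and 68.4 CPM in the 3 males and 76.4 to 109 CPM (median 81.9) in the 7 females (edgeR log2 fold change -0.16, SE 0.11, unadjusted p 0.186, adjusted p 0.547). Of the genes of this paragraph only Insig1 was called by edgeR as reported. DESeq2's Wald test called Insig1, Lss and Mvk, and edgeR without the filter called Insig1 and Mvk.

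Of the 11 fatty acid genes 0 were called between the sexes by edgeR, 1 by DESeq2 (Elovl1, adjusted p 0.0103) and 0 by limma-voom. By edgeR 3 had an unadjusted p under 0.05, all with a lower estimate in males (Elovl1, Fads1 and Srebf1), where 7.79% of all genes stood in that direction. The count was 3 without KO replicate 5, and with single mice left out it ran from 1 (without WT replicate 1) to 5 (without WT replicate 4). Elovl1 measured 279, 307 and 293 CPM in the 3 males and 293 to 429 CPM (median 345) in the 7 females (edgeR log2 fold change -0.31, SE 0.08, adjusted p 0.0894), and Srebf1 measured 109.6, 124 and 119 CPM in the 3 males and 122 to 143 CPM (median 129) in the 7 females (edgeR log2 fold change -0.17, SE 0.07, adjusted p 0.25). Fasn, Scd1 and Scd2 had log2 fold changes of -0.20, -0.09 and 0.09 between the sexes, with edgeR adjusted p of 0.427, 0.877 and 0.592. Whether the branches differ in their sex difference was not tested. Summed markers of alveolar type 2 cells overlapped between the sexes (29050 to 34970 CPM in males, 28720 to 35580 CPM in females), as did those of alveolar macrophages (687 to 730.3 CPM and 573 to 843 CPM). The sums of club cell markers were 26910 to 34290 CPM in males and 26070 to 30010 CPM in females, with 3 of 5 markers at an unadjusted p under 0.05 with a higher estimate in males and 1 called, Aldh1a1 (edgeR log2 fold change 0.34, SE 0.06, adjusted p 0.024). Over all genes tested, 7.34% stood past that unadjusted mark with a higher estimate in males, and 0.449% were called and higher in males. At an unadjusted p under 0.05 were 2 of 9 alveolar type 2 markers with a lower estimate in males (Etv5, log2 fold change -0.24, and Napsa) and 1 of 8 macrophage markers, also lower (Marco, -0.44). Higher in estimate were 2 of 6 lipofibroblast markers (Plin2 and Fgf10) and 1 of 5 ciliated cell markers (Foxj1), and of 5 Schwann cell markers 1 was higher and 1 lower. None of these was called by edgeR. The summed ranges of the 2 sexes also overlapped for markers of lipofibroblasts, ciliated cells, endothelium, Schwann cells and fat cells. The part of cell content in the sex differences was not tested.

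**Figure D3:**
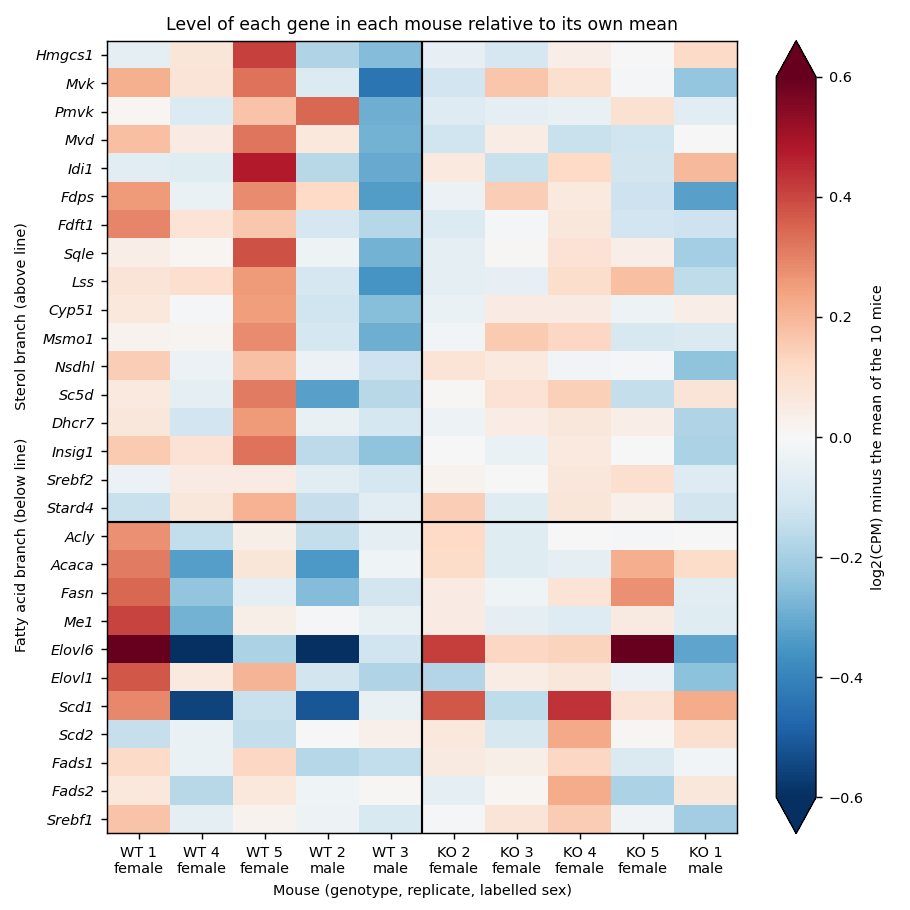
Level of each gene in each mouse as log2(CPM) minus the mean of the 10 mice, with sterol genes above and fatty acid genes below the horizontal line, and WT mice left and KO mice right of the vertical line. WT replicate 5 is high and WT replicate 3 low through the sterol rows, whereas WT replicate 1 is high and WT replicates 2 and 4 low in many of the fatty acid rows.

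The mice that held most of the highest and lowest values were not the same in the branches. Several mice still leaned the same way in both. WT replicate 2 lay below the mean in 14 of 17 sterol and 11 of 11 fatty acid genes, and WT replicate 3 in 17 and 9. WT replicate 1 lay above the mean in 13 and 10, and KO replicate 4 in 14 and 8. WT replicate 4 lay above the mean in 10 sterol genes and below it in 10 fatty acid genes. In WT replicate 5 all 17 sterol genes lay above their own mean and 14 had their highest value. In WT replicate 3 all 17 lay below their mean and 13 had their lowest value. In the fatty acid branch WT replicate 1 held the highest value of 7 of 11 genes and KO replicate 4 that of the other 4. WT replicate 2 held the lowest value of 4 of the 11 genes and WT replicate 4 that of 3, and in WT replicate 2 all 11 lay below their mean.

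To measure this, the level of each member was related to that of Hmgcs1, the reference of the sterol branch, and each fatty acid gene also to Fasn, in 37 relations over the 10 mice (Pearson's r of log2 CPM, permutation test, Benjamini-Hochberg over the 37). Of these 6 passed, and the count was 12 without KO replicate 1, 3 without WT replicate 1 or WT replicate 3, 2 without WT replicate 5 and 1 in the 7 females alone. Idi1, which encodes the isomerase of isopentenyl diphosphate and holds 2 CCAAT boxes in its promoter window, varied with Hmgcs1 (r 0.93, permutation p 2.6e-04, adjusted p 0.00481; Spearman's rho 0.87, permutation p 0.00215, adjusted p 0.0398). Idi1 measured 49.2, 44.7, 39.2, 46.6 and 39.8 CPM in KO replicates 1 to 5 and 41.1, 38.3, 34.8, 40.8 and 59.6 CPM in WT replicates 1 to 5. Its order over the mice was close to that of Hmgcs1, and WT replicate 5 was far above the rest. Cyp51, the lanosterol demethylase gene, also passed (r 0.87, permutation p 0.0028, adjusted p 0.0259; rho 0.54, permutation p 0.114, adjusted p 0.346). Cyp51 measured 31.2, 29.6, 31.4, 31.4 and 29.7 CPM in KO replicates 1 to 5 and 31.7, 27.9, 25.4, 30.2 and 36.1 CPM in WT replicates 1 to 5. The KO values spanned 29.6 to 31.4 CPM and the WT values 25.4 to 36.1 CPM, so most of its range lay in the WT mice.

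Over the 16 other sterol genes the median r with Hmgcs1 was 0.64 (range 0.28 to 0.93), and 7 of 16 had an r of at least 0.7, where 1.1% of all genes did. Over the 11 fatty acid genes the median was 0.05 (range -0.19 to 0.59) and 0 reached 0.7. Hmgcs1 and Fasn had an r of 0.04 (permutation p 0.92, adjusted p 0.963; rho 0.09, permutation p 0.81, adjusted p 0.886). The sterol relations rested on WT replicates 3 and 5, the mice farthest from the median of Hmgcs1. Without them r was 0.71 for Idi1, 0.49 for Cyp51, 0.11 for Insig1, -0.27 for Sqle and -0.23 for Mvk. Of the 27 relations of members with Hmgcs1, 0 passed without this pair, 0 without WT replicate 5 alone, 1 without WT replicate 2 or WT replicate 3, and 7 without KO replicate 1. With the genotype and sex means taken out, r was 0.94 for Idi1, 0.86 for Cyp51 and 0.90 for Insig1. All points share a library and its scaling.

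In the fatty acid branch 4 of 10 genes passed with Fasn. The count was 1 without WT replicate 1, 2 without KO replicate 3, WT replicate 3, WT replicate 4 or WT replicate 5, and 1 in the 7 females alone. Elovl6, in whose promoter window neither motif was found, was closest (r 0.96, permutation p 5.0e-05, adjusted p 0.00185; rho 0.95, permutation p 1.8e-04, adjusted p 0.00666). Elovl6 measured 9.45, 15.7, 12.8, 12.9 and 19.4 CPM in KO replicates 1 to 5 and 24.8, 5.53, 10.8, 6.99 and 10.3 CPM in WT replicates 1 to 5. The mice high in Elovl6, WT replicate 1 and KO replicate 5, were also those high in Fasn, and WT replicates 2 and 4 were low in both. Without WT replicate 1 and KO replicate 5, the mice farthest from the median of Fasn, r was 0.93. The carboxylase gene Acaca had an r of 0.87 (permutation p 0.00222, adjusted p 0.0259; rho 0.76, permutation p 0.0151, adjusted p 0.144) and 0.78 without those mice.

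Acly had an r of 0.79 with Fasn (permutation p 0.00627, adjusted p 0.0445; rho 0.72, permutation p 0.0233, adjusted p 0.144) and 0.81 without those mice. The malic enzyme gene Me1, a source of NADPH for synthesis, had one of 0.75 (permutation p 0.00721, adjusted p 0.0445; rho 0.54, permutation p 0.112, adjusted p 0.346), which was 0.45 without them. Scd1 reached 0.72 (permutation p 0.0183, adjusted p 0.0752; rho 0.72, permutation p 0.0232, adjusted p 0.144), and 0.91 without them. Srebf1 had an r of 0.53 (permutation p 0.11, adjusted p 0.239; rho 0.72, permutation p 0.0233, adjusted p 0.144). Scd2 and Fads2 had r of -0.06 and 0.10. Within the 7 females r with Fasn was 0.97 for Elovl6, 0.90 for Acaca, 0.74 for Acly and 0.84 for Me1, of which at most 1 passed there. Correlations were not computed within a genotype (n = 5 mice). An r of at least 0.7 with Fasn was reached by 5 of 10 fatty acid members, where 1.07% of all genes did. It was also reached by 4 of 17 tested genes of the list of other fatty acid genes, named after their values were seen: Acss2, Slc25a1, Mlxipl and Thrsp. Thrsp, a lipogenesis gene abundant in fat and liver, measured 12.4, 20.9, 13.2, 17.6 and 23.0 CPM in KO replicates 1 to 5 and 41.9, 6.29, 14.1, 4.26 and 18.5 CPM in WT replicates 1 to 5. Its highest value was again in WT replicate 1 and its lowest in WT replicates 2 and 4.

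Fat cell markers varied among the same pieces of tissue. The summed level of 8 markers was 212, 142, 136, 137 and 302 CPM in KO replicates 1 to 5 and 252, 134, 166, 77.7 and 327 CPM in WT replicates 1 to 5. None was at 0 in all mice, 7 were tested, and Ucp1, the marker of brown fat, had a median of at most 3 counts. WT replicate 4 was lowest in these markers as it was low in Fasn and Elovl6, while WT replicate 5 was highest in them with Fasn at 738 CPM, between the extremes of the mice. The part of fat tissue in the relations of the fatty acid genes was not tested.

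**Figure D4:**
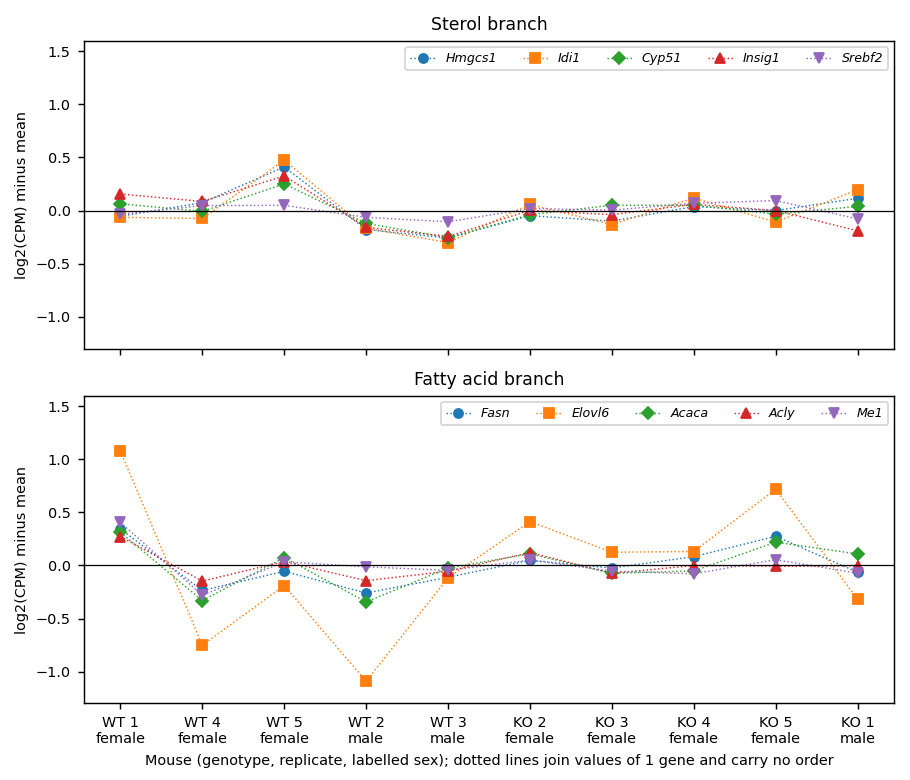
log2(CPM) minus the mean of the 10 mice for 5 sterol genes (top) and 5 fatty acid genes (bottom), with 1 point per gene and mouse. In the sterol panel WT replicate 5 is highest and WT replicate 3 lowest for the genes shown, except that Srebf2 is highest in KO replicate 5, and in the fatty acid panel Elovl6 follows Fasn over a wider range.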

How the data were processed

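Libraries were made with a stranded mRNA kit and read as 50-base single reads, per the labels' protocols. FastQC, MultiQC, STAR 2.6.0 and Salmon 0.9.1 are named, with the builds mm10 and GRCm38, per the submitters' processing notes, which give no roles. The authors deposited 1 table of estimated counts per gene, of which 30.1% of the values above 0 lay more than 0.01 from a whole number. Here they were rounded and tested with edgeR 4.0.16 (R 4.3.3) by robust quasi-likelihood, with trimmed mean of M values scaling, sex and genotype as terms, and filterByExpr with its minimum count of 10. The typical coefficient of variation between mice was 9.69%. DESeq2 1.42.0 and limma 3.58.1 were alternatives. Of 47333 identifiers 52 had no symbol. Correlations used log2 CPM with a prior count of 2 and 100000 permutations. The tests were checked on simulated data. Values are described per mouse for Hmgcs1, Sqle, Insig1, Srebf2, Fasn, Scd1 and Srebf1, for members with the smallest unadjusted p under 0.05 (up to 10 for genotype, up to 5 for sex), and for Idi1, Cyp51 and Elovl6, chosen after their values were seen. For each pathway list up to 3 genes were named by the same p. The members, lists and rules were chosen with earlier results of these data known. Depth of 21357452 to 28321361 counts per library left each of the 28 genes well above the filter.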

Additional observations from a re-analysis of the deposited data

Results flagged for a closer look

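In the 56 sets of 5 mice examined (28 genes in each genotype), 3 held a mouse whose distance from its nearest neighbour exceeded the 95% critical share of 0.71 of the whole range, where chance alone gives about 2.8. Idi1 in WT replicate 5 measured 59.63 CPM, with the other WT mice at 34.8 to 41.1 CPM. Elovl6 in WT replicate 1 measured 24.83 CPM, with the other WT mice at 5.53 to 10.8 CPM. Pmvk in KO replicate 5, the mouse labelled female with Xist at 1.78 CPM, measured 32.59 CPM, with the other KO mice at 29.1 to 29.7 CPM.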

How the results depend on the processing

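Between KO and WT mice, 0 of 28 members and 0 of the tested genes of the other pathway lists were called in each of the 20 alternatives, so no call was lost or gained there. The median log2 fold change when single mice were left out ran from -0.115 to -0.004 in the sterol branch and from -0.013 to 0.074 in the fatty acid branch. Hmgcs1 changed sign without WT replicate 5 (0.087) and without WT replicates 3 and 5 (0.051), Srebf1 in females alone and without KO replicate 1 (0.001 in each), and the sex difference of Scd1 without WT replicate 1 (0.049) and without WT replicate 2 (0.036). With single mice left out, these ran from -0.186 to 0.087 for Hmgcs1, from -0.081 to 0.001 for Srebf1 and from -0.183 to 0.049 for Scd1 between the sexes. None of these passed.

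Between the sexes the count of sterol genes called, 1 as reported, was 3 with DESeq2's Wald test, 2 without the filter, 2 at an adjusted p under 0.1, and 0 with DESeq2 size factors, limma-voom, no robust dispersion, no genotype covariate or WT replicates 3 and 5 left out. It was 0 to 1 when single mice were left out. The count in the fatty acid branch, 0 as reported, was 1 with DESeq2's Wald test, without the filter and at an adjusted p under 0.1, each time Elovl1.

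The number of relations that passed, 6 as reported, ran from 2 to 12 when single mice were left out and was 1 in the 7 females alone and 1 without WT replicates 3 and 5. The last 2 alternatives were chosen after seeing the data. The cause of these changes was not tested.

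No paired analysis was possible because the replicate numbers are in order of deposit and the labels name no cage, litter or day that ties mice of both genotypes. With 3 mice labelled male, 1 of them KO, the sexes are compared at low precision, and the genotype by sex interaction was not fitted.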
